A study of Mus musculus with 6 samples.

Results

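The transcription factors of the NF-κB family and the inhibitors that hold them in check were followed through a knock-down of Nkx2-1 in a mouse lung epithelial cell line. The set comprised 10 genes: the subunits Rela, Relb, Rel, Nfkb1 and Nfkb2, the IκB-type proteins Nfkbia, Nfkbie, Nfkbiz and Bcl3, and the feedback inhibitor Tnfaip3. A member was read from the transcript cluster (the set of array probes that stands for a gene) whose only gene symbol in the array annotation was that gene. This gave 9 of the 10 members, out of 19938 genes with a single symbol and 35557 transcript clusters in all; Nfkb1 was not analysed here. Where a gene has several transcript clusters, the rule has 1 of them selected on its mean over the 6 arrays, the highest being taken. Each of the 9 had only 1, so this measured value decided nothing.

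The cells were MLE15 (labelled MLE-15), a line from lung tumors of transgenic mice in which the human promoter of surfactant protein C drives the simian virus large tumor antigen, so that all 6 lines carry that antigen. Of these lines 3 had been transduced with a mixture of 3 lentiviral pLKO.1 clones expressing shRNAs against Nkx2-1, and 3 with the empty pLKO.1 vector, which served as non-silencing control. The empty vector holds no hairpin, so lower Nkx2-1 and the expression of shRNAs as such cannot be told apart in this comparison. Both groups had been selected with puromycin. The labels give a time of 48 h, whereas the methods describe stable, independently transduced lines. Total RNA of each line was hybridized to 1 Affymetrix Mouse Gene 1.0 ST array, and all values below are log2 values as deposited.

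NF-κB factors are dimers of proteins that share a Rel homology domain. In resting cells IκB proteins bind them and keep them in the cytoplasm. Signals from cytokine and pattern-recognition receptors activate the IκB kinase (IKK) complex, IκB is phosphorylated and degraded, and the freed dimer enters the nucleus and binds κB sites in DNA. Among the genes it then switches on are those of its own inhibitors, Nfkbia and Tnfaip3, and of some of its own subunits, so that the response limits itself. In lung epithelium the pathway is known for driving chemokine and host defence genes.

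Several members have strings that match κB sites within 250 bases before an annotated transcription start. Promoters (250 bases before to 50 bases after each annotated start, RefSeq, GRCm38.p6) were on hand for 7 members. The κB consensus motif, searched on both strands, occurred in the promoters of 6 of them: Nfkbia, Nfkbie, Nfkb2, Rel, Tnfaip3 and Bcl3. Counted by promoter, 8 of the 10 promoters of these 7 members contained it, against 4.51% of all 32851 promoters. In Bcl3 it lay after the start, and Rela had no match in this window. The windows below are shown because they place the motif beside members whose mRNA rose (Nfkbia and Tnfaip3) and beside members whose mRNA did not pass the test (Nfkbie, Rel and Nfkb2). Each is read 5′ to 3′ on the strand of the gene, with the κB match in capitals.
Nfkbia, chr12:55492657-55492686, minus strand: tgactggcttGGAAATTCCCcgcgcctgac
Tnfaip3, chr10:19015411-19015440, minus strand: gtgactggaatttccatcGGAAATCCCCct
Rel, chr11:23771042-23771071, minus strand: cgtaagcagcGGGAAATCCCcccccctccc
Nfkb2, first start, chr19:46304688-46304717, plus strand: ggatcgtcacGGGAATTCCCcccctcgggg
Nfkb2, last start, chr19:46305695-46305724, plus strand: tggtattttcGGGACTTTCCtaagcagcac
Nfkbie, chr17:45555584-45555613, plus strand: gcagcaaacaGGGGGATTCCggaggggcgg
The match began 29 bases before the start in Nfkbia, 12 in Tnfaip3, 92 in Rel, 106 in Nfkbie, and 39 and 225 before the first and last of the 3 annotated starts of Nfkb2. The matches in Rel and at the first start of Nfkb2 can also be read on the opposite strand and overlap a further match shifted by 1 base. Tnfaip3 had another match 125 bases before its start, and Nfkb2 others not shown. The letters CAAG, the core of the sites that Nkx2-1 binds (CTTG on the other strand), were found in at least 1 promoter of all 7 members. They occurred in 9 of the 10 promoters of these members, but also in 90.6% of all promoters. A match is a string of letters, and no binding was measured in these data.

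The log2 level of Nkx2-1 itself was 7.91, 7.98 and 7.83 after knock-down and 8.61, 8.61 and 8.59 in control, a fall to 61.8% of control (adjusted p = 0.00155). Array medians ran from 5.10 to 5.21. Correlations over all transcript clusters, which are not independent of each other, were 0.991 to 0.994 within groups and 0.979 to 0.983 between them. No array stood apart from its group. Of 13 lung epithelial markers 12 exceeded the background limit of 4.35 in the control lines, with Cdh1 and Sftpb among them, and 11 in the Nkx2-1-shRNA lines, where Sftpc dropped under it. Chemosensory receptor genes set this limit: 95% of their 1245 transcript clusters lay under it. At an adjusted p under 0.05, 4 of the 13 epithelial markers were higher after knock-down, namely Krt18, Krt19, Cldn4 and Sftpd. Nkx2-1, Sftpa1 and Sftpc, 3 of the 13, were lower, and Cdh1 and Sftpb were not called. Krt19 rose by 1.19 and Cldn4 by 1.74 on the log2 scale, and Sftpc fell from 7.73 to below the limit. Leukocytes in the cultures could bring in NF-κB mRNA of their own. Their marker Ptprc lay below the limit in both groups. Of 11 leukocyte markers 4 lay above it in both groups: Cd68 (6.67 after knock-down and 6.81 in control), Cd14 (5.52 and 5.38), Cd3e and Coro1a. The mean over the list ran from 4.04 to 4.20 in the Nkx2-1-shRNA and from 4.05 to 4.16 in the control lines. Fibroblast markers (6 of 9 above the limit) had means of 4.48 to 4.55 and 4.39 to 4.50, and endothelial markers (3 and 4 of 8) of 4.43 to 4.57 and 4.52 to 4.67. Pecam1 and Cdh5 lay below the limit, but other endothelial markers did not and moved both ways: Flt1 rose from 6.57 to 7.37 and Vwf from 5.84 to 6.26, while Tek fell from 5.77 to below the limit. Csf1r was called higher among the leukocyte markers, below the limit in both groups. The part of these markers in the results was not tested. In RNA from whole cultures, fewer cells of a kind and less RNA per cell cannot be told apart.

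Knock-down of Nkx2-1 went with higher mRNA of both textbook feedback inhibitors, Nfkbia and Tnfaip3, and of Relb and Nfkbiz, while Rela, Rel, Nfkb2 and Bcl3 did not pass the test. Nfkbie, the other cytoplasmic IκB of the set, was lower in every Nkx2-1-shRNA line but just missed the threshold. Thus 4 of 9 members rose and none fell (limma, Benjamini-Hochberg adjusted p under 0.05 over all transcript clusters). By the methods' t-test only 1 rose, Nfkbia, and 0 fell. Nfkbie was the 1 member lower at an unadjusted p under 0.05 (limma). Of all transcript clusters 7.61% were called higher and 9.24% lower. The groups did not overlap for 4 higher members and 1 lower member. Over all transcript clusters this held for 34.9%, with 15.1% higher and 19.8% lower, and over the genes above background for 52.5%, with 26.1% and 26.4%. Among the 13565 single-symbol genes above background, as all 9 members were, 15.3% were higher and 13.9% lower. The median log2 difference of the 9 members was 0.27, against −0.029 over all transcript clusters and −0.0040 over the genes above background. The members were chosen with results of these arrays known, so the counts describe them and test nothing. Without Nkx2-1-shRNA replicate 1 or 3 the count of higher members was 1, and without control replicate 1, 2 or 3 it was 2.

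**Figure D1:**
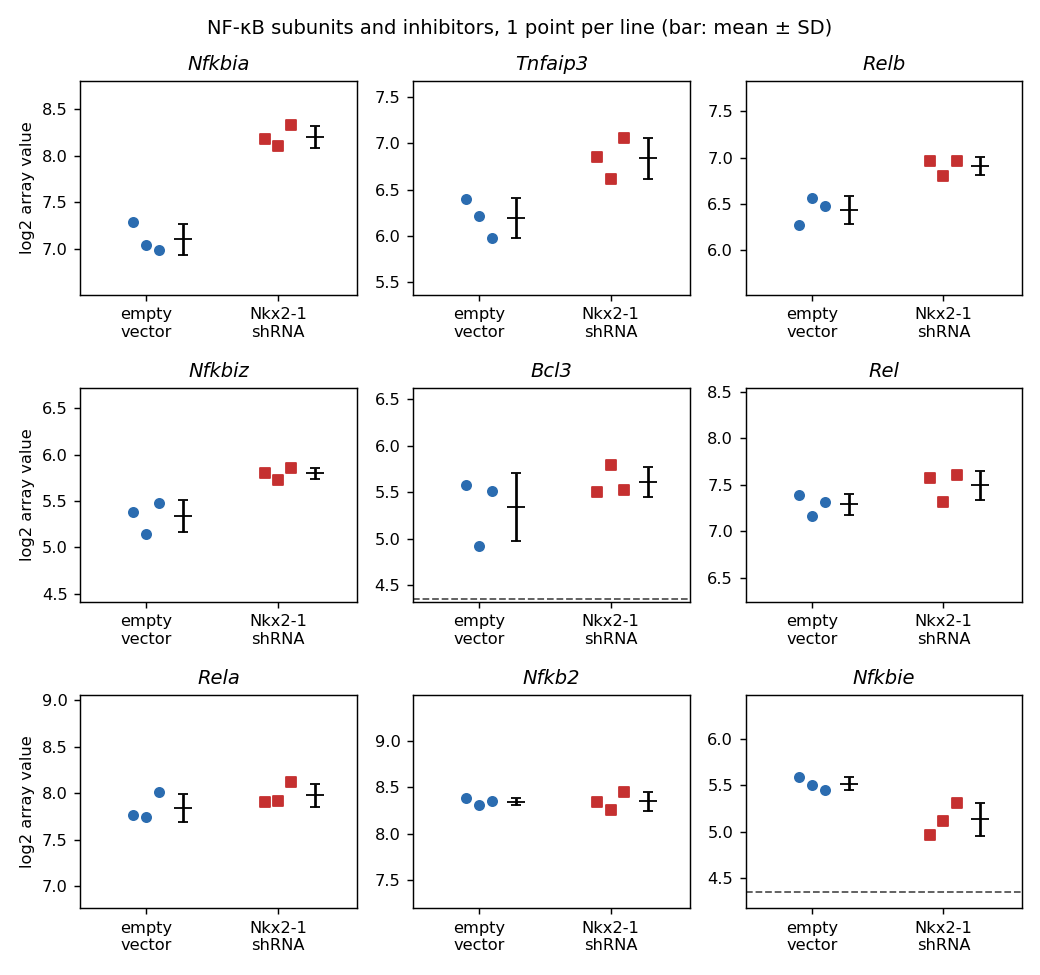
Log2 array values (vertical axis, same span of 2.3 in every panel) of the 9 measured members of the 3 lines with empty vector, drawn as blue circles, and the 3 with Nkx2-1-shRNA, drawn as red squares, with mean and SD as black bars and the background limit of 4.35 as a dashed line where it falls in the panel. The groups do not overlap for Nfkbia, Tnfaip3, Relb and Nfkbiz, which are higher after knock-down, and for Nfkbie, which is lower; in the other 4 panels they overlap.

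Nfkbia encodes IκBα, the inhibitor that is degraded and resynthesized in each cycle of NF-κB activation. Its log2 level was 8.19, 8.10 and 8.33 after knock-down and 7.29, 7.04 and 6.98 in control (transcript cluster 10400405). The lowest knock-down line lay 0.81 above the highest control line. The mean rose from 7.10 ± 0.17 to 8.21 ± 0.12 (SD, n = 3), a log2 difference of 1.103 (SE 0.11, 95% confidence interval 0.84 to 1.37), or 215% of control. The adjusted p was 0.0012. It passed in all 17 alternative fits, with log2 differences of 1.04 to 1.20 and adjusted p from 3.1e-05 to 0.0378. The difference did not pass the study's own cut, which asks for an adjusted p under 0.0005, nor did that of any other member (1.26% of all transcript clusters passed).

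Nfkbie encodes IκBε, another cytoplasmic inhibitor that is degraded on signalling. Its values were 4.97, 5.12 and 5.31 after knock-down and 5.59, 5.51 and 5.45 in control. All knock-down lines lay below all control lines, with a gap of 0.14, and the lowest array lay 0.62 above the background limit. The log2 difference was −0.38 (95% confidence interval −0.64 to −0.13, unadjusted p = 0.00925, adjusted p = 0.0533). Without Nkx2-1-shRNA replicate 3 it passed, at −0.475 (adjusted p = 0.0383), and it also passed in the 3 fits that tested fewer transcript clusters (0.0177 to 0.0316).

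Tnfaip3 encodes A20, an enzyme that edits ubiquitin chains on signalling proteins upstream of IKK and so ends the signal. It had values of 6.85, 6.61 and 7.05 after knock-down against 6.40, 6.22 and 5.97 in control. The groups were 0.21 apart, and both spread widely for this set (SD 0.22 and 0.21). The gene rose by 0.64 on the log2 scale (SE 0.15, 95% confidence interval 0.28 to 1.00, adjusted p = 0.0309), to 156% of control. The call ended without Nkx2-1-shRNA replicate 1 or 3 (0.0928 and 0.0872), without control replicate 2 or 3 (0.0765 and 0.0790), and by both ordinary tests (0.115 and 0.145), in a range of 0.00516 to 0.145.

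Relb encodes the subunit of the alternative pathway, in which it pairs with the processed product of Nfkb2. Its values were 6.97, 6.80 and 6.97 after knock-down and 6.27, 6.56 and 6.48 in control. The groups stood 0.23 apart. Relb rose from 6.44 ± 0.15 to 6.91 ± 0.098 (SD, n = 3), a log2 difference of 0.47 (SE 0.10, 95% confidence interval 0.22 to 0.72, adjusted p = 0.0237). The call ended without Nkx2-1-shRNA replicate 1 or 3 (0.0882 and 0.0796), without control replicate 1 or 3 (0.0582 and 0.0526), and by both ordinary tests (0.0706 and 0.116), in a range of 0.00522 to 0.116.

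Nfkb2 encodes the precursor of that partner. It stood at 8.34, 8.25 and 8.45 against 8.38, 8.30 and 8.35. The groups overlapped fully, and the log2 difference was 0.0013, with a 95% confidence interval of −0.20 to 0.20 (adjusted p = 0.995). Its sign turned in 3 alternatives.

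Rela encodes the main transactivating subunit of the classical pathway and Rel a related subunit best known from lymphocytes. Rela had values of 7.90, 7.92 and 8.12 after knock-down and 7.77, 7.75 and 8.02 in control, and Rel had 7.57, 7.32 and 7.60 against 7.39, 7.17 and 7.31. In both genes the groups overlapped. The log2 difference was 0.13 for Rela (95% confidence interval −0.13 to 0.395, adjusted p = 0.492) and 0.21 for Rel (−0.055 to 0.47, adjusted p = 0.275). These intervals leave room for modest changes of either gene, but lie below the whole interval of Nfkbia.

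The nuclear IκB proteins act on chromatin rather than in the cytoplasm. Nfkbiz encodes IκBζ, a coactivator needed for a subset of NF-κB target genes. Its values were 5.80, 5.73 and 5.85 after knock-down and 5.39, 5.15 and 5.48 in control. The knock-down lines lay close together (SD 0.062) and 0.25 above the highest control line. Nfkbiz rose by 0.46 on the log2 scale (SE 0.11, 95% confidence interval 0.21 to 0.71, adjusted p = 0.0280). The call ended by both ordinary tests (0.0793 and 0.174) and without any 1 line other than control replicate 3 (0.0588 to 0.0908), in a range of 0.00663 to 0.174. Bcl3, which binds dimers of the processed precursors, had values of 5.50, 5.79 and 5.52 against 5.58, 4.92 and 5.51. Control replicate 2 was the low value, and the other 5 lines overlapped. Its log2 difference was 0.27 (95% confidence interval −0.18 to 0.71, adjusted p = 0.412), and 0.060 without that line.

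**Figure D2:**
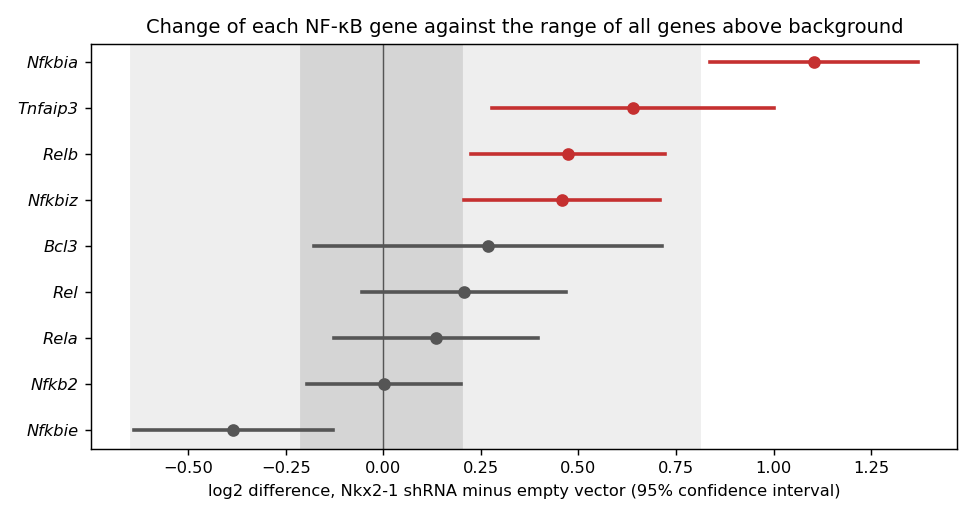
Log2 difference of each measured member (horizontal axis, Nkx2-1-shRNA minus empty vector, n = 3 lines each; point with 95% confidence interval), red where it rose at an adjusted p under 0.05. Grey bands hold the middle 50% (dark) and 90% (light) of the 13565 genes above background; Nfkbia at 1.103 lies outside the wider band, which ends at 0.81, and Nfkb2 at 0.0013 sits at no difference.

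Differences between members within an array cancel any constant added to that array, though not the effects of quantile normalization, and show how unequally partners moved. Nfkbia minus Nfkbie was 3.22, 2.98 and 3.02 after knock-down and 1.70, 1.53 and 1.53 in control. This shift of 1.49 between the cytoplasmic inhibitors was the widest of the 4 pairs compared. Nfkbia minus Rela, the inhibitor and its classical target, shifted by 0.97, from −0.48, −0.71 and −1.04 in control to 0.28, 0.19 and 0.21. Tnfaip3 minus Rela shifted by 0.50 and Relb minus Nfkb2 by 0.47. In each pair the groups did not overlap. The exact two-sided permutation test gave p = 0.1 (0.1 after Benjamini-Hochberg adjustment over the 4 pairs), the smallest value that 3 lines against 3 allow. Each pair sets a member called higher against 1 that was not. The shifts therefore restate the differences given above, and this test adds no support to them. The sizes of the differences themselves compare probes of different genes and have no meaning.

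Position on the chromosome was examined because Nkx2-1 and Nfkbia are neighbors. The 20 nearest single-symbol genes above background, 10 on each side in the gene order of GRCm38.p6, were taken for every member. Around Nfkbia on chromosome 12 these neighbors include Nkx2-1 itself (−0.69), its lung partner gene Foxa1 (−0.85) and Pax9 (−0.54). Their median log2 difference was −0.026, with 2 called higher and 5 lower, and their range of −0.97 to 0.76 ended below the 1.103 of Nfkbia. The direct neighbors Psma6 (0.042) and Insm2 (−0.056) did not pass the test. The neighbors of Tnfaip3 on chromosome 10 had a median of 0.014 and reached from −2.20 (Pde7b) to 0.53, also below the 0.64 of Tnfaip3. For Relb on chromosome 7 the median was −0.061, with 2 neighbors called higher and 5 lower. Their range of −0.49 to 0.82 reached above the 0.473 of Relb, with Pvr at 0.82 and Trappc6a at 0.59. For Nfkbiz on chromosome 16 it was 0.19, with 9 of 20 neighbors called higher, among them Tmem45a (2.21) and Cep97 (0.42). The rise of Nfkbiz by 0.46 therefore stands among neighbors of which 9 were higher too, and the part of position in it was not tested. Nfkbie on chromosome 17, in contrast, was lower among neighbors of which 6 were called higher (median 0.066). Around Rela, Rel, Nfkb2 and Bcl3 the medians ran from −0.0024 to 0.055.

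**Figure D3:**
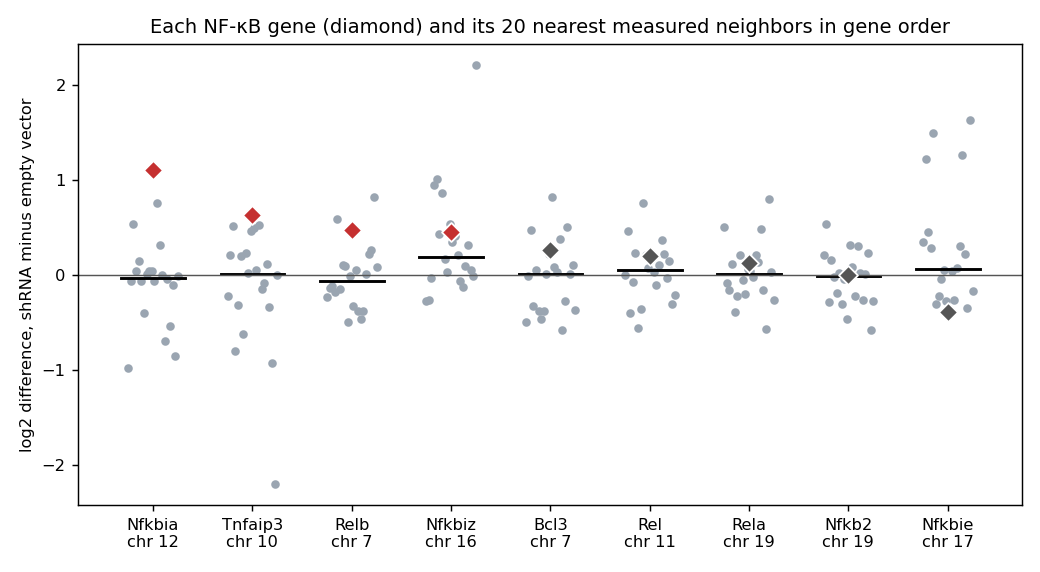
Log2 difference (vertical axis, Nkx2-1-shRNA minus empty vector) of each measured member (diamond, red where it rose) and of its 20 nearest measured neighbors above background in gene order (grey points, median as black bar), with members along the horizontal axis. Nfkbia lies above all of its neighbors at 1.103, and Nfkbiz at 0.46 lies among neighbors whose median is 0.19.

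The patterns most like that of Nfkbia over the 6 arrays, by root mean square difference of mean-centred log2 values over 13564 other genes above background, were those of 5 genes. Slc4a4, a sodium bicarbonate cotransporter gene, came closest at 0.040 log2 units, with 9.42, 9.24 and 9.55 after knock-down and 8.49, 8.17 and 8.19 in control. It was followed by Map2 (0.052), Sgms2 (0.053), Plxnd1 (0.056) and Arfgef1 (0.057). All 5 had log2 differences of 1.03 to 1.19. With 6 arrays, this likeness is mostly the shared difference between groups.

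The wider pathway was read from 7 lists of genes outside the set, by role. Of 162 listed genes 146 had a transcript cluster, and 128 of these exceeded the background limit in at least 1 group. At an adjusted p under 0.05, 37 rose and 12 fell (25.3% and 8.22%, against 7.61% and 9.24% of all transcript clusters and 15.3% and 13.9% of genes above background). Of the calls 75.5% were rises, and 86.7% after median centring (39 and 6), against 45.2% and 59.5% over all transcript clusters. The share that rose differed between the lists, from 13.3% of the ligands to 33.3% of the targets of adhesion, survival and defence. It was 17.6% for the IKK complex and upstream kinases and 20.0% for the adaptors. In the IKK genes and adaptors it thus lay near the 15.3% of genes above background. The 13.3% of the ligands is not on that basis. It counts all 15 measured ligands, of which 8 exceeded the limit, and the 2 that rose were among these 8. Whether any list differed from that share was not tested. The median log2 difference over the 146 genes was 0.085. The falls were the less stable calls when a line was left out. They numbered 4, 6 and 5 without Nkx2-1-shRNA replicate 1, 2 and 3, and 6, 8 and 10 without control replicate 1, 2 and 3. Fits that tested fewer transcript clusters gave more falls: 15 above the median level, 15 above background and 20 with 1 gene symbol only. The fits that follow are given for the called list genes named below other than Tlr3 and Tlr4. Of these, Tnip3, Tnip1, Rnf11, Pdlim2, Otud7b, Ikbke, Map3k3, Sharpin, Tnfrsf1a, Il33, Ccl20, Il23a, Csf1 and F3 also passed the test for unequal variances, and the others did not (adjusted p of 0.0622 to 0.233). By the methods' t-test Nkrf, Tnfrsf12a, Ngfr, Birc2, Card14, Csf2, Saa3, Icam1 and Sod2 did not pass (0.0521 to 0.134). Median centring ended the calls of Nkrf, Ikbkg, Ngfr, Icam1, Sod2 and Stat5a (0.0531 to 0.116), all of them falls. Repeated quantile normalization ended those of Nkrf, Ngfr and Stat5a (0.0606 to 0.112), array weights that of Nkrf (0.0513), and averaging transcript clusters that of Birc2 (0.0997).

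Partners and relatives of the inhibitors came first. Of 20 such genes 5 rose and 2 fell, with a median of 0.13. Tnip3, which encodes an A20-binding inhibitor, had values of 8.46, 8.60 and 8.31 after knock-down and 6.46, 6.33 and 5.90 in control. This was the largest change in the 7 lists, a rise of 2.22 with an SE of 0.16 (adjusted p = 0.000326, and 1.65e-06 to 0.0414 in the alternative fits). Its paralog Tnip1 rose by 0.68, from 6.66 ± 0.12 to 7.34 ± 0.11 (SD, n = 3). Rnf11, a subunit gene of the A20 complex, rose by 0.76, Pdlim2, whose product targets nuclear Rela for degradation, by 0.69, and Otud7b, a deubiquitinase gene of the A20 family, by 0.49. The third classical IκB gene, Nfkbib (IκBβ), fell from 8.08 ± 0.037 to 7.57 ± 0.13, a log2 difference of −0.51 (adjusted p = 0.0114; 0.0503 without Nkx2-1-shRNA replicate 1). Thus among the classical IκB genes Nfkbia rose, Nfkbib fell and Nfkbie had −0.38. Nfkbid, a nuclear IκB gene, had −0.25 (adjusted p = 0.276). Nkrf, which encodes an NF-κB repressing factor, fell by 0.49 (adjusted p = 0.0472, and 0.0542 to 0.135 without any 1 line). Nkrf was named after its value was seen, as were Sharpin, Tlr2, Tlr3, Tlr4, Ngfr, Birc2, Card14, Cxcl10, Sod2 and Stat5a below.

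Of 17 measured genes of the IKK complex and its upstream kinases 3 rose and 2 fell, with a median of −0.14 and a mean of 0.014. Ikbke, which encodes the inducible IKK-related kinase IKKε, had 5.95, 6.05 and 5.77 after knock-down against 4.85, 4.93 and 4.72 in control, and rose by 1.09 (adjusted p = 0.000916). Map3k3, an upstream kinase gene, rose by 0.72 and the adaptor gene Tab1 by 0.36 (adjusted p = 0.0305). Ikbkb, a catalytic subunit gene, had 0.14 (adjusted p = 0.313). Ikbkg, which encodes the regulatory subunit NEMO, fell by 0.40 (adjusted p = 0.0186), and Sharpin, a subunit gene of the linear ubiquitin ligase, fell by 0.35 (adjusted p = 0.0201). These smaller calls were fragile. Tab1 lost its call without any 1 line other than Nkx2-1-shRNA replicate 3 (0.0654 to 0.107). Ikbkg lost it without Nkx2-1-shRNA replicate 1 or 3 or control replicate 1 or 2 (0.0589 to 0.0696). Sharpin lost it without any Nkx2-1-shRNA line or control replicate 1 (0.0570 to 0.0862).

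Among the 22 measured receptors 7 rose and 2 fell, with a median of 0.23. Tnfrsf1a, the receptor gene of TNF, rose from 8.05 ± 0.12 to 8.90 ± 0.11 (SD, n = 3), a log2 difference of 0.85 (adjusted p = 0.00208). Eda2r, an ectodysplasin receptor gene, rose by 1.85, the interleukin-18 receptor gene Il18r1 by 1.06 and Tnfrsf12a, which encodes the TWEAK receptor, by 1.04. The bacterial lipoprotein sensor gene Tlr2 fell by 0.54 and the neurotrophin receptor gene Ngfr by 0.34. The Toll-like receptor genes Tlr4 and Tlr3, in contrast, rose by 0.56 and 0.39 (adjusted p = 0.0142 and 0.0329). By the methods' t-test 3 receptor genes rose: Tnfrsf1a, Eda2r and Il18r1. The call of Ngfr ended without any 1 line (0.0645 to 0.151).

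Of 25 measured adaptors 5 rose and 1 fell, with a median of 0.0014. Irak2, an interleukin-1 receptor kinase gene, rose by 0.55, the scaffold gene Card10 by 0.48, the signalling hub gene Sqstm1 by 0.42, Card14 by 0.39 and the ubiquitin ligase gene Birc2 by 0.38. Irak3, which encodes an inhibitory relative of these kinases, fell by 0.67 (adjusted p = 0.00523). Traf2 had −0.23 (adjusted p = 0.232). The call of Sqstm1 ended without any Nkx2-1-shRNA line (0.0590 to 0.0629), that of Card14 without any 1 line other than control replicate 3 (0.0774 to 0.112), and that of Birc2 without any 1 line other than Nkx2-1-shRNA replicate 2 (0.0514 to 0.135).

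Of 15 measured ligands 2 rose and none fell (limma; Tnfsf10 was the 1 ligand lower at an unadjusted p under 0.05, at 0.0211, and 1 ligand was called lower without control replicate 2 and with 1 gene symbol only, and 0 by the methods' t-test), and 7 lay at or under the background limit in both groups. The epithelial cytokine genes Il18 and Il33 rose to 5.10 and 5.22 from values that lay below the limit on all 3 control arrays (means 3.41 and 4.18). Against the limit of 4.35 Il18 was at least 1.68-fold and Il33 at least 1.83-fold higher (adjusted p = 0.00126 and 0.00155), and both exceeded the limit in the knock-down lines alone. Tnf, at 4.52 ± 0.13 in control and 4.74 ± 0.11 after knock-down (SD, n = 3), had a log2 difference of 0.22 (adjusted p = 0.207).

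The target genes moved unequally. Of 20 chemokine and cytokine genes known as NF-κB targets 6 rose and 2 fell. The median was −0.049, which turns positive under median centring (a shift of 0.080 for every gene), and the mean 0.16. Ccl20, a chemokine gene of mucosal epithelium, had 6.71, 7.02 and 7.19 after knock-down against 5.02, 4.91 and 5.10 in control, and rose by 1.96 (adjusted p = 0.000267). Il23a rose by 1.49 and Csf2, the GM-CSF gene, by 0.95. Csf1, the M-CSF gene, had 5.95, 5.80 and 5.91 against 7.27, 7.21 and 7.13, and fell by 1.32 (adjusted p = 0.000192). Cxcl10, an interferon-responsive chemokine gene, fell by 0.89 (adjusted p = 0.00212). Cxcl1, the classical NF-κB chemokine gene of epithelium, stood at 5.69 ± 0.061 and 5.70 ± 0.099 (SD, n = 3), a log2 difference of −0.015 (adjusted p = 0.938) whose sign turned in 5 alternatives.

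Of 27 measured targets of adhesion, survival and defence 9 rose and 3 fell, with a median of 0.21 (10 and 0 with median centring). F3, the tissue factor gene, had 9.04, 8.93 and 8.98 against 7.59, 7.66 and 7.57, and rose by 1.38 (adjusted p = 0.000115, and 9.86e-07 to 0.0133 in the alternative fits). Tnfaip8, a survival gene, rose by 1.52, and by 0.92 as the mean of its transcript clusters. The immediate early gene Ier3 rose by 1.05 and Saa3, a serum amyloid gene, by 0.79. Icam1, the adhesion molecule gene often used as a readout of NF-κB, fell by 0.44 (adjusted p = 0.0280), the superoxide dismutase gene Sod2 by 0.37 (adjusted p = 0.0475) and Stat5a by 0.33 (adjusted p = 0.0354). The call of Icam1 ended without Nkx2-1-shRNA replicate 1, 2 or 3 or control replicate 2 (0.0610 to 0.103). That of Sod2 ended without any 1 line other than control replicate 3 (0.112 to 0.138) and that of Stat5a without any 1 line (0.0524 to 0.106).

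**Figure D4:**
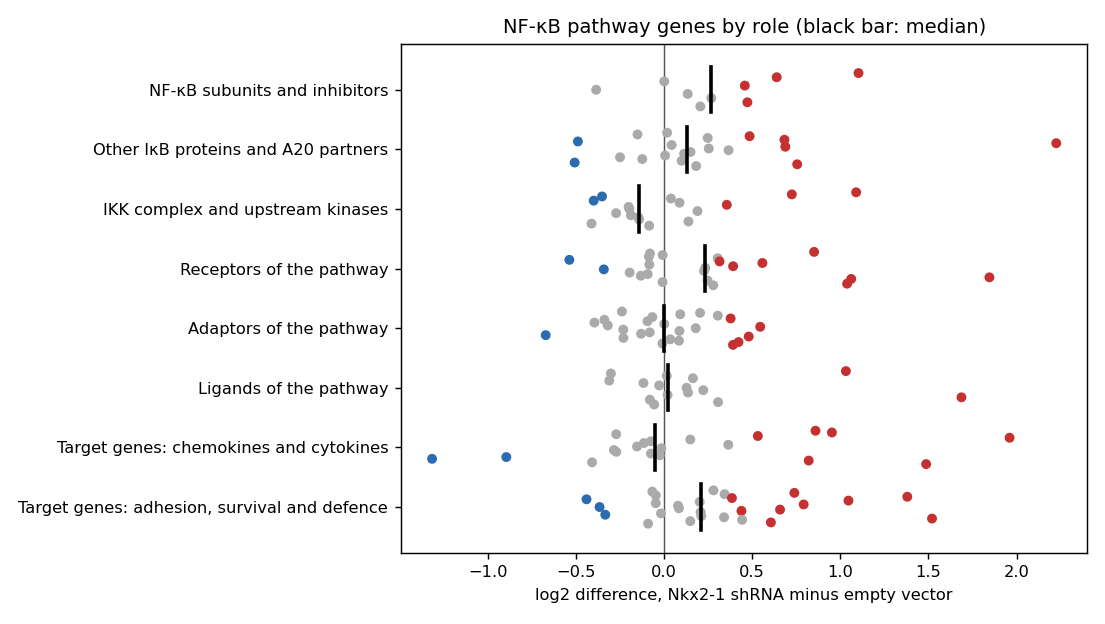
Log2 difference (horizontal axis, Nkx2-1-shRNA minus empty vector) of the 9 measured members and of the 146 measured genes of the 7 lists (vertical axis), 1 point per gene, red where it rose and blue where it fell at an adjusted p under 0.05, with the median of each list as a black bar. Medians run from −0.14 for the IKK complex and upstream kinases to 0.27 for the members, and single genes from −1.32 (Csf1) to 2.22 (Tnip3).

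**Figure D5:**
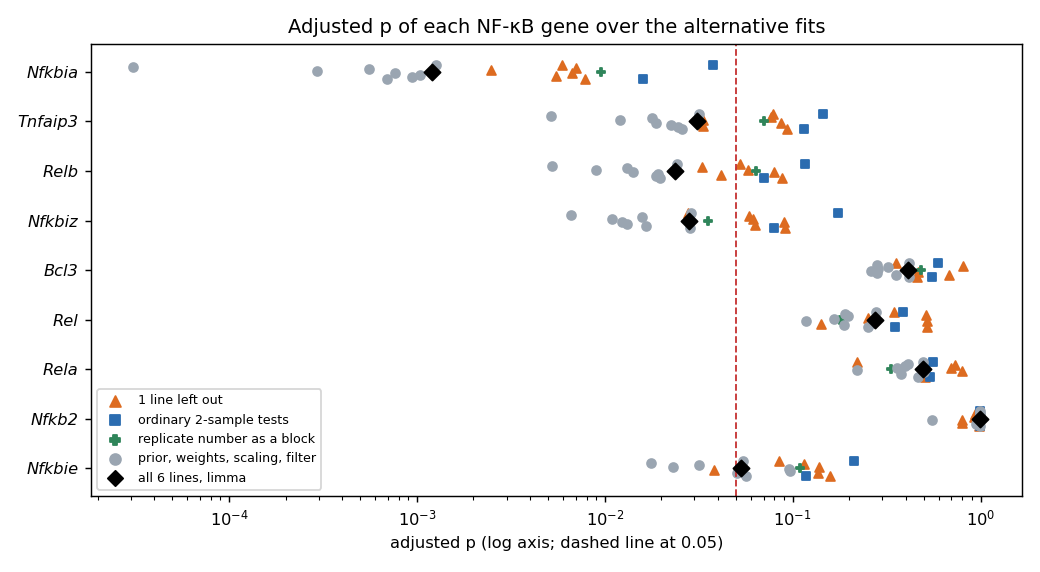
Adjusted p (horizontal log axis) of each measured member in the fit of all 6 lines (black diamond) and in 17 alternative fits (orange triangles with 1 line left out, blue squares the ordinary tests, green crosses the replicate number as a block, grey circles the others), with 0.05 as a dashed line. Only Nfkbia stays below 0.05 in every fit; Tnfaip3, Relb and Nfkbiz each stay below it in 10 of 17, and Nfkbie crosses it in 4.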

How the data were processed

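RNA levels of 6 MLE15 lines (3 Nkx2-1-shRNA, 3 empty vector) came from 1 array each. The authors processed the scans in Expression Console 1.1 with RMA, which corrects background, equalizes the arrays by quantiles and combines the probes. The deposited values are log2 values and were used as they stand. The genome build of the probes is not given in the sources used here. Of 35557 transcript clusters, 21789 carried 1 gene symbol in the array annotation. The comparison used limma 3.58.1 under R 4.3.3 (lmFit and eBayes without a block, with 4 residual degrees of freedom and a prior of 2.86), two-sided, with Benjamini-Hochberg adjustment over all transcript clusters and a threshold of 0.05. Precision is limited by the number of arrays, and p-values measure the spread between these lines.

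The members and gene lists were chosen with earlier results of these data known. Named were all members, up to 4 called genes with the largest change and the best known gene of each list, Nfkbib, Nfkbid, Nkx2-1, and the 5 patterns closest to the member that changed most. List genes were matched by symbol or Entrez identifier. Alternatives were the methods' t-test, a test for unequal variances (together "ordinary tests"), a trended and robust prior, array weights, repeated quantile normalization, median centring, 3 filters (level above the median, level above background, 1 gene symbol), replicate block, each line left out, the cut the study used (log2 difference beyond 0.6, adjusted p under 0.0005) and averaging the transcript clusters of each gene. The study's cut was applied to the limma p-values of the main fit, not to the study's own p-values.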

Additional observations from a re-analysis of the deposited data

How the results depend on the processing

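Of the 9 members 4 were higher and 0 lower. The methods' t-test and the test for unequal variances left 1 higher, replicate block 2, the study's threshold 0, and leaving out 1 line 1 to 3. A member (Nfkbie) was lower in 1 case each above the median level, above background, with 1 gene symbol only, and in 0 to 1 without 1 line. Pathway genes were 37 higher and 12 lower. They were 15 and 2 by the test for unequal variances and 4 and 1 at the study's threshold, 6 lower with median centring, 20 lower with 1 gene symbol only, and 28 to 32 higher and 4 to 10 lower without 1 line. All transcript clusters gave 2705 higher and 3284 lower, 832 and 760 by the test for unequal variances, 286 and 162 at the study's threshold, 1983 lower by the methods' t-test, and 1690 to 2225 and 1815 to 2750 without 1 line. Of these counts under alternatives 75 of 106 stayed within 1.5 times. The difference of Nfkb2 ran from −0.050 to 0.050 without 1 line, and turned to −0.0076 with quantile normalization repeated, −0.050 without Nkx2-1-shRNA replicate 3 and −0.019 without control replicate 2. That of Cxcl1 ran from −0.072 to 0.019 without 1 line, and turned to 0.056 with quantile normalization repeated, 0.065 with median centring, and 0.017, 0.0083 and 0.019 without Nkx2-1-shRNA replicate 1, control replicate 1 and control replicate 3. The cause was not tested, except that leaving out a line leaves fewer samples and the filters leave fewer tests. Replicate block left Nfkbia and Nfkbiz called (adjusted p of 0.00957 and 0.0355), with Relb at 0.0638 and Tnfaip3 at 0.0700, and gave 31 higher and 8 lower pathway genes and 2269 and 2775 transcript clusters. The labels share only a number: deviations of same-numbered lines correlated at 0.058, 0.14 and −0.034 across transcript clusters. Median centring moved every difference by 0.080.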
